A study of Mus musculus with 12 samples.

Results

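The mevalonate and cholesterol pathway and the fatty acid synthesis pathway were followed through 35 genes, taken by name from 54658 gene rows of RNA sequencing counts of mouse mammary tumours and mammary epithelium. All 35 were found and passed the filter on low counts that left 21456 genes for testing. They comprise 19 genes of the sterol branch, 11 of the fatty acid branch and 5 genes that regulate both. The tumours were 9 mammary tumours of genotype Trp53R245W/+, a somatic missense change in 1 copy of the gene for p53, a tumour suppressor. All mice were female F1 hybrids, of the cross C57BL/6J X BALB/cJ. The tumours were compared with 3 preparations of enriched mammary epithelium from WT females of that cross and cohort. The labels give neither the age of the animals, nor the cells that carried or acquired the somatic change, nor whether each library came from a separate animal, so p-values measure the spread between these libraries. Tumours carry the numbers of their labels, 1, 4, 5, 14, 17, 20, 21, 24 and 27, and epithelium libraries the numbers 1, 2 and 3.

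Cells make cholesterol from acetyl-CoA by way of mevalonate, isoprenoids, squalene and lanosterol, and fatty acids from acetyl-CoA by way of malonyl-CoA. Both branches are transcribed under the SREBP factors, which the escort protein SCAP carries from the endoplasmic reticulum to the Golgi when sterols are low and which INSIG proteins hold back when sterols are plentiful. In the mammary gland these enzymes are best known for making milk fat during lactation, and growing tumour cells use their products for membranes. Fatty acid synthesis is also a main activity of adipocytes, which surround the gland.

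Library totals lay between 19695318 and 33600076 counts in genes. Tumour 4 was unlike the rest: 51.97% of its alignments were not unique and Rn7sk, a noncoding RNA gene, took 22.58% of its gene counts, where the other tumours reached at most 27.18% and 5.26%. Alignments outside annotated genes made up 8.08% to 32.25% in tumours and 39.9% to 41.51% in epithelium. The title prefix of the libraries coincides with the group, so a batch and the group cannot be told apart, and neither can the p53 change and tumour state. Counts per gene do not show a missense change, so they do not check the genotype labels. Of 10 mammary epithelial markers 3 were higher in tumours (Epcam, Cdh1 and Cldn3) and none lower, and Krt19 and Krt14 had log2 fold changes of -1.23 and -0.68 that did not pass the test. Their summed CPM (counts per 1000000, with library sizes scaled by the trimmed mean of M values) was 1536 to 7003 for tumours and 2201 to 3024 for epithelium, with tumours 20 (1536 CPM) and 21 (1880 CPM) below the epithelium. Epcam was present in every library. Its level lay between 454.9 and 2025 CPM for tumours and between 249.5 and 274.8 CPM for epithelium. Lymphocyte genes were part of the epithelium preparations. The summed level of 8 T cell markers was 3.76 to 33.1 CPM in tumours and 404.1 to 453.1 CPM in epithelium. That of 7 B cell markers was 1.77 to 63.5 CPM in tumours and 507.5 to 675.9 CPM in epithelium. Of 8 macrophage markers, C1qa, C1qb and C1qc were higher in tumours and none was lower. The macrophage sum was 591.7 to 3460 CPM in tumours and 832.5 to 1136 CPM in epithelium. Summed levels of 7 genes of dividing cells ran from 467.1 to 2888 CPM in tumours and from 122 to 200.7 CPM in epithelium. Fewer cells of a type and less RNA per cell cannot be told apart in such bulk samples, and the part of these differences in the results below was not tested.

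Promoters are shown for a few members because SREBP factors act at the start of these genes together with NF-Y, a factor that binds CCAAT. The windows are the 250 bases before the RefSeq start of the gene on build GRCm38.p6, 5′ to 3′ on the strand of the gene. Capitals mark matches on either strand to TCACNCCAC (a sterol regulatory element), CACGTG (an E-box, which SREBP-1 can also bind) or CCAAT, which reads ATTGG on the opposite strand. Hmgcs1 (chr13:119690101-119690350, plus strand) held the single sterol regulatory element found among members, Mvk (chr5:114444019-114444268, plus strand) the most CCAAT matches, and Hsd17b7 (chr1:169969206-169969455, minus strand) an E-box between CCAAT matches. Fasn (chr11:120824548-120824797, minus strand) and Acly (chr11:100528001-100528250, minus strand) stand for the fatty acid branch, Acly with no match. 
Hmgcs1: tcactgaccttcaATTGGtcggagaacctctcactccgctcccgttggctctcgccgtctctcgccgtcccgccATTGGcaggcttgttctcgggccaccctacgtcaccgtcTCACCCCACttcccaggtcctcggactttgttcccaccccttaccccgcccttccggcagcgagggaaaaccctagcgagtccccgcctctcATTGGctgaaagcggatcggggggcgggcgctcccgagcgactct
Mvk: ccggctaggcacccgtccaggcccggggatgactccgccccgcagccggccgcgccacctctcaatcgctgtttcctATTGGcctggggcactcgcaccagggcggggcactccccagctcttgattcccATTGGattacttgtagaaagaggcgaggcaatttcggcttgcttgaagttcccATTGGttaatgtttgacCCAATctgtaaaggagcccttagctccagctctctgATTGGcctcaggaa
Hsd17b7: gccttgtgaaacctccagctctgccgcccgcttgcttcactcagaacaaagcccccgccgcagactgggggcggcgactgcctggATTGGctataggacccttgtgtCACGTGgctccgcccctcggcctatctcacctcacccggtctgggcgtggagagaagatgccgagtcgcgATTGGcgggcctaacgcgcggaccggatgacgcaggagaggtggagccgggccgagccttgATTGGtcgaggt
Fasn: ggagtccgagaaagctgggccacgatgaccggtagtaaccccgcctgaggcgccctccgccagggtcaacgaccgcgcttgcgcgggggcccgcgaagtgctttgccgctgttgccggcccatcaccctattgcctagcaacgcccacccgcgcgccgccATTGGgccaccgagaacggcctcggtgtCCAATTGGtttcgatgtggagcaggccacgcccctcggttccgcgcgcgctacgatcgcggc
Acly: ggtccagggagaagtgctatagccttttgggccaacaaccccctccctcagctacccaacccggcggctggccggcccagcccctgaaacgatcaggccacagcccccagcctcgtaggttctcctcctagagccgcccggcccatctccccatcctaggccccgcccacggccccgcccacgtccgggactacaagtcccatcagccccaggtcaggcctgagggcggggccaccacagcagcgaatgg

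A promoter window of this kind was found for 28 of the 35 members, some with several starts, and a gene was counted where any of its windows held the motif. CCAAT was present for 14 of 15 sterol members, 4 of 8 fatty acid members and 4 of 5 regulators, compared with 39.44% of 13169 tested genes that had a window. The E-box was present for 3 of 15, 1 of 8 and 2 of 5, compared with 8.94% of tested genes. TCACNCCAC was present for 1 of 15 sterol members and for 1.24% of tested genes. In Fasn a CCAAT match on each strand overlapped, and no other windows of members held overlapping matches. Such matches describe letters in these windows and are not measurements of binding.

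The sterol branch was higher in tumours in 7 of its 19 genes and lower in none (edgeR quasi-likelihood test, p adjusted by Benjamini-Hochberg over the 21456 genes, threshold 0.05). Over all genes tested, 8.89% were higher by the same rule and 11.4% lower, 20.3% in either direction. The genes that rose were Acat2, Mvk, Pmvk, Fdps, Sqle, Hsd17b7 and Dhcr7, which stand at the start, in the middle and at the end of the pathway. All 19 log2 fold changes (tumour over epithelium) were above 0, with a median of 0.81 and a range of 0.18 to 2.14, beside a median of 0.17 for all genes tested. In 6 of the 19 every tumour lay above every epithelium library, which 10.2% of all genes tested did. Leaving out epithelium library 1, 2 or 3 lowered the count of 7 to 2, 3 or 2. Without tumour 4 it was 8. Over all genes, 1908 were called higher with all libraries, and 506, 541 or 548 without epithelium library 1, 2 or 3. Without tumour 4 the count over all genes was 2486. Among single genes Mvk lost its call in 8 of 19 alternative fits (adjusted p of 0.0501 to 0.166 there), Fdps in 6 (0.0515 to 0.158), Hsd17b7 in 4 (0.0515 to 0.138), Acat2 in 3 (0.0805 to 0.128) and Dhcr7 in 2 (0.0545 to 0.0579). For Acat2 and Dhcr7 these were fits without an epithelium library. Mvk was also lost without tumour 5, 17 or 27 and under either other filter on low counts, Fdps without tumour 5 or 14 and with no filter, and Hsd17b7 with no filter.

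**Figure D1:**
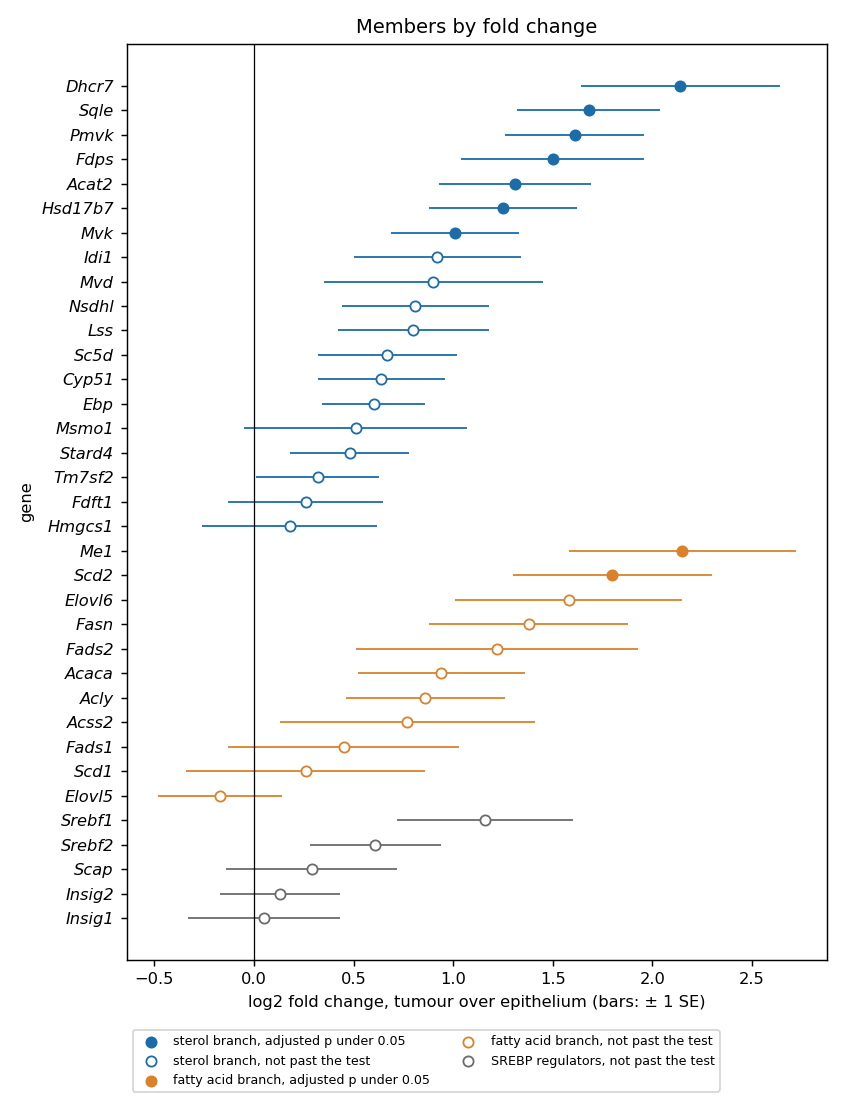
Log2 fold change (tumour over epithelium) of all 35 genes with bars of ± 1 SE, ordered by size within the sterol branch, the fatty acid branch and the regulators. Filled points mark the 7 sterol and 2 fatty acid genes past the test, and Elovl5 is the single gene with a value below 0.

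The first steps of the sterol branch differed from gene to gene. Hmgcs1, the enzyme that joins acetyl-CoA and acetoacetyl-CoA to HMG-CoA, had 41.3, 68.9 and 145.7 CPM as the lowest, median and highest tumour, against 72.3, 60.6 and 104 CPM in epithelium libraries 1, 2 and 3. Its tumours lay on both sides of the epithelium, 4 above all 3 libraries and 4 below, and the log2 fold change of 0.18 (SE 0.44) did not pass the test (edgeR adjusted p = 0.798). Acat2, the cytosolic thiolase that makes acetoacetyl-CoA (chromosome 17, 12942890 to 12960747 on GRCm38), rose. It had 10.6, 21.6 and 35.3 CPM as the lowest, median and highest tumour, against 8.10, 10.3 and 7.88 CPM in the epithelium libraries, with a log2 fold change of 1.31 (SE 0.38, edgeR adjusted p = 0.0280). The lowest tumour, number 20, was just above the highest epithelium library. Of the main Acat2 transcript 65.6% matches transcripts of Acat3 or Tcp1 at 95% identity or more, so its counts are uncertain.

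The kinases and the decarboxylase that turn mevalonate into the isoprenoid building block followed. Mvk, mevalonate kinase (chromosome 5, 114444269 to 114460591), had 10.8, 12.5 and 25.6 CPM as the lowest, median and highest tumour, against 6.86, 6.33 and 7.98 CPM in epithelium. All tumours were above the epithelium, tumour 1 far above the other 8, and the log2 fold change was 1.01 (SE 0.32, edgeR adjusted p = 0.0405). Pmvk, phosphomevalonate kinase (chromosome 3, 89454541 to 89469013), had 20.6, 28.6 and 58.6 CPM as the lowest, median and highest tumour, against 8.83, 11.6 and 10.6 CPM in epithelium. The groups did not overlap, and the log2 fold change was 1.61 (SE 0.35, edgeR adjusted p = 0.00596). Mvd, the diphosphomevalonate decarboxylase, had 2.01 CPM in tumour 4 and 22.9 CPM in tumour 1, against 6.19 to 7.84 CPM in epithelium (log2 fold change 0.90, edgeR adjusted p = 0.250). Tumour 4 was the single tumour below the epithelium for this gene.

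Isoprenoid condensation and squalene formation came next. Idi1, the isomerase of isopentenyl diphosphate, was above every epithelium library in 8 tumours and below all of them in tumour 21, with 13.7 CPM (log2 fold change 0.92, SE 0.42, edgeR adjusted p = 0.135). Fdps, farnesyl diphosphate synthase (chromosome 3, 89093588 to 89101959), rose at a low level. It had 2.45, 4.76 and 10.4 CPM as the lowest, median and highest tumour, against 1.73, 1.43 and 2.00 CPM in epithelium, with a log2 fold change of 1.5 (SE 0.46, edgeR adjusted p = 0.0377). Transcripts of 5 other genes, 4 of them pseudogenes, cover 91.4% of its main transcript at 95% identity or more. Reads of Fdps may therefore be split or set aside as not unique. Among the 5 is Gm43738, whose exons overlap those of Fdps on the same strand, so reads there may fit both genes at the same place. Fdft1, squalene synthase, had tumours on both sides of the epithelium (3 above and 3 below all libraries) and a log2 fold change of 0.26 (SE 0.39, edgeR adjusted p = 0.655).

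Sqle, squalene epoxidase and a rate-limiting step of the later pathway (chromosome 15, 59315077 to 59331192), had the highest level per length of the sterol branch in tumours, at 36.2 CPM per kb of its main transcript, against 11.3 CPM per kb in epithelium. In CPM the lowest, median and highest tumour were 49.4, 97.8 and 149, against 27.5, 26.1 and 39.9 CPM in epithelium libraries 1, 2 and 3. Tumours 24 and 14 were nearly equal at the top and tumour 21 was lowest, still above the epithelium (log2 fold change 1.68, SE 0.36, edgeR adjusted p = 0.00633). Pmvk and Sqle passed the test in all 19 alternative fits, with adjusted p of at most 0.0473 and 0.0483.

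Sterol ring formation and demethylation, the work of Lss, Cyp51, Tm7sf2, Msmo1 and Nsdhl, gave 5 genes with log2 fold changes of 0.32 to 0.81, none of which passed the test. Lss, which closes the ring to lanosterol, had its lowest value of 13.4 CPM in tumour 4, against 20.2 to 25.7 CPM in epithelium, while tumour 14 reached 62.2 CPM. Msmo1, the C4 methyl oxidase, spanned 14.4 CPM in tumour 14 and 92.7 CPM in tumour 1, against 17.9 to 41.6 CPM in epithelium (log2 fold change 0.51, SE 0.56, edgeR adjusted p = 0.537). The SD of its log2 CPM among the epithelium libraries, 0.61, was the largest of the 35 genes.

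Hsd17b7, the 3-ketosteroid reductase of the demethylation complex (chromosome 1, 169949535 to 169969241), rose. It had 11.7, 25.1 and 44.3 CPM as the lowest, median and highest tumour, against 11.3, 9.25 and 12.8 CPM in epithelium. Tumour 4 fell within the epithelium range and the other 8 tumours were above it (log2 fold change 1.25, SE 0.37, edgeR adjusted p = 0.0295). Dhcr7, which reduces 7-dehydrocholesterol to cholesterol (chromosome 7, 143823145 to 143848410), had the largest change of the branch. Its lowest, median and highest tumour were 13.3, 35.7 and 61.6 CPM, against 7.72, 8.87 and 8.18 CPM in epithelium (log2 fold change 2.14, SE 0.50, edgeR adjusted p = 0.00958). No tumour overlapped the epithelium, and tumours 21 and 4 were the nearest to it. Ebp (0.60) and Sc5d (0.67), enzymes of the last double-bond shifts, and Stard4 (0.48), a sterol carrier protein, had log2 fold changes that did not pass the test (edgeR adjusted p of 0.124, 0.189 and 0.271).

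**Figure D2:**
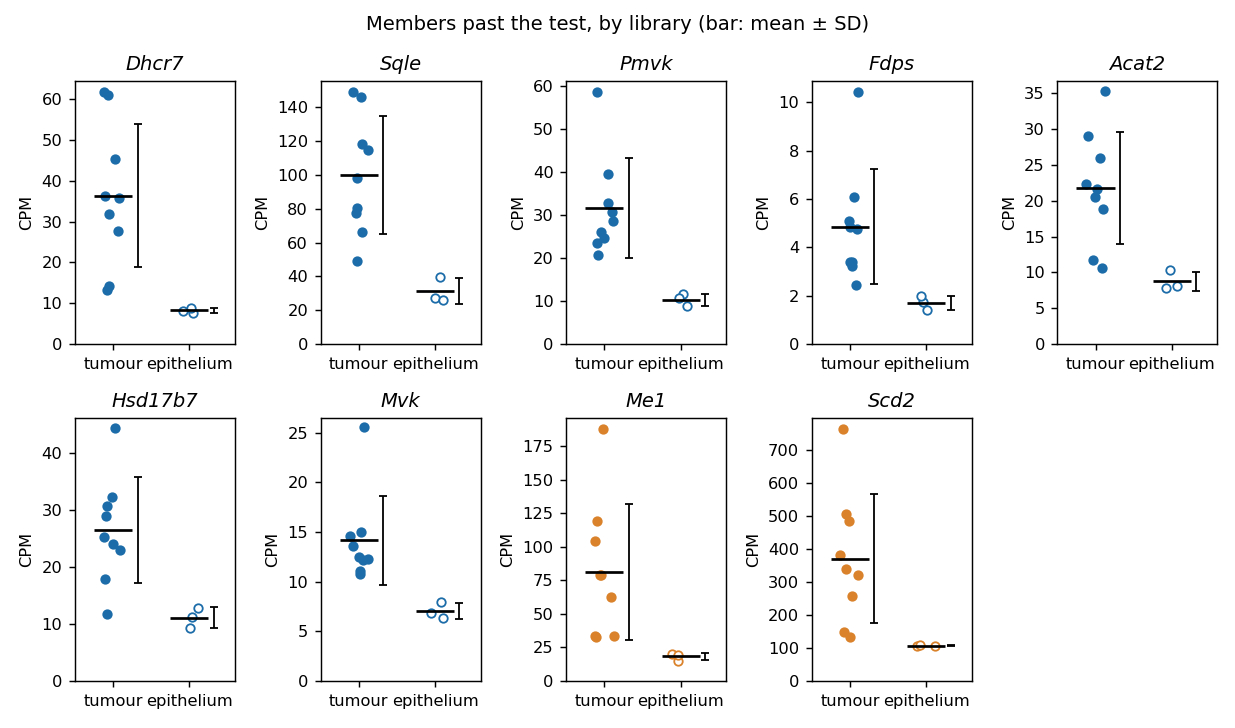
CPM of the 9 genes past the test in each tumour and epithelium library, with the mean and SD of each group. Every tumour lies above every epithelium library except for Hsd17b7, where tumour 4 with 11.7 CPM falls inside the epithelium range.

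The fatty acid branch was higher in tumours in 2 of 11 genes, Scd2 and Me1, and lower in none, beside the 8.89% of all genes that were higher. Its median log2 fold change was 0.94, with a range of -0.17 to 2.15, and 10 of 11 values were above 0. In 4 of the 11 (Acaca, Elovl6, Scd2 and Me1) every tumour was above every epithelium library, beside 10.2% of all genes tested. Without epithelium library 1, 2 or 3 neither Scd2 nor Me1 passed the test (adjusted p of 0.0776 to 0.0990), while without tumour 20 the count was 4. Without tumour 4 it was 3, with Fasn added. Over all genes, 506, 541 or 548 were called higher without epithelium library 1, 2 or 3, against 1908 with all libraries. Without tumour 20 or 4 the count over all genes was 1890 or 2486. DESeq2 called 4 members of this branch higher and limma-voom 6, where 13.1% and 23.3% of the genes each tested were higher and 12.4% and 26.2% lower.

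Acetyl-CoA supply and chain synthesis come first in the fatty acid branch. Acly, which releases cytosolic acetyl-CoA from citrate, was at 82.7 CPM per kb in tumours and 45.7 CPM per kb in epithelium, the highest level per length of all members in tumours. The lowest, median and highest tumour were 151.9, 370.2 and 734.2 CPM, against 198.4, 205.8 and 197.4 CPM in epithelium (log2 fold change 0.86, SE 0.40, edgeR adjusted p = 0.142). Tumour 20 was below the epithelium and 7 tumours were above it. Acss2, which makes acetyl-CoA from acetate, was lowest in tumour 1 (4.62 CPM) and highest in tumour 20 (58.9 CPM), against 13.5 to 16.5 CPM in epithelium (edgeR adjusted p = 0.410).

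Acaca, the acetyl-CoA carboxylase that makes malonyl-CoA, had 99.3, 151.2 and 439.6 CPM as the lowest, median and highest tumour, against 84.1, 94.3 and 91.1 CPM in epithelium. All 9 tumours were above the epithelium, tumour 14 far above the others, but the log2 fold change of 0.94 (SE 0.42) did not pass the test (edgeR adjusted p = 0.122). Fasn, fatty acid synthase (chromosome 11, 120805846 to 120824547), had 102.9, 437.4 and 671.6 CPM as the lowest, median and highest tumour, against 152.7, 167.5 and 144.9 CPM in epithelium. Tumour 4 was below the epithelium and the other 8 tumours were above it (log2 fold change 1.38, SE 0.50, edgeR adjusted p = 0.0680). DESeq2 and limma-voom, and edgeR without tumour 4 or 20, called Fasn higher (adjusted p of 0.00366 to 0.0481).

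Me1, the cytosolic malic enzyme that supplies NADPH (chromosome 9, 86581371 to 86695953), had the largest log2 fold change of the 35 genes, next to that of Dhcr7. Its CPM were 32.5, 78.6 and 187.4 as the lowest, median and highest tumour, against 20.2, 15.0 and 19.6 CPM in epithelium, with a log2 fold change of 2.15 (SE 0.57, edgeR adjusted p = 0.0192). The groups did not overlap, with tumours 20, 1 and 21 close together at the low end. Transcripts of 3 other genes, 2 of them pseudogenes, match 62.5% of its main transcript, so its counts are uncertain in the same way as those of Fdps. Matches to other transcripts also make counts uncertain for Acaca (64.3% of its transcript), Fdft1 (54.7%), Idi1 (33.3%), Elovl6 (13.5%), Hmgcs1 (13.3%), Scd2 (11.4%, shared with Scd1) and Scap (5.3%). For Fdft1, Idi1, Hmgcs1 and Scap they include a gene with exons that overlap theirs on the opposite strand (Ctsb, Gm48574, Gm48342 and 5830462I19Rik). The effect of such overlaps hangs on the strand setting of the counts, which was not given. Exons of Tm7sf2 overlap those of Vps51 on the same strand, as those of Fdps overlap Gm43738. Exons of Scd2 and Srebf1 overlap the microRNA genes Mir5114 and Mir6922 on the same strand.

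Desaturases and elongases follow. Scd2, a stearoyl-CoA desaturase (chromosome 19, 44293674 to 44306864), had 133.9, 337.8 and 764.3 CPM as the lowest, median and highest tumour, against 107, 105.4 and 107.5 CPM in epithelium. Every tumour was above these 3 nearly equal libraries (log2 fold change 1.80, SE 0.50, edgeR adjusted p = 0.0236). Scd1, another stearoyl-CoA desaturase, was lowest in tumour 24 (80.2 CPM) and highest in tumour 14 (693.8 CPM), against 264.4 to 326.2 CPM in epithelium (log2 fold change 0.26, SE 0.60, edgeR adjusted p = 0.785). Its tumours were spread on both sides, 5 above and 4 below the epithelium. Elovl6, which elongates palmitate, was above the epithelium in all 9 tumours, at 22.3 to 138.5 CPM in tumours against 17.04 to 20.96 CPM in epithelium (log2 fold change 1.58, SE 0.57, edgeR adjusted p = 0.0647). DESeq2 and limma-voom, and edgeR without tumour 1, 20 or 21, called Elovl6 higher (adjusted p of 0.00339 to 0.0484). Elovl5, an elongase of polyunsaturated fatty acids, was the single member below 0 (-0.17, SE 0.31, edgeR adjusted p = 0.731).

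Fads1 and Fads2, the delta-5 and delta-6 desaturases of polyunsaturated fatty acids which lie close together on chromosome 19, had the widest range among tumours together with Acss2. The highest tumour exceeded the lowest 12.5-fold for Fads1 and 12.7-fold for Fads2, with tumour 20 highest and tumour 4 lowest for both. Fads2 spanned 11.2 to 142.8 CPM across tumours and 25.2 to 42.7 CPM in epithelium (log2 fold change 1.22, SE 0.71, edgeR adjusted p = 0.229). For Fads1 the range was 12.9 to 160.7 CPM in tumours and 44.5 to 71.2 CPM in epithelium (log2 fold change 0.45, SE 0.58, edgeR adjusted p = 0.601).

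None of the 5 regulators passed the test in edgeR, where 1 had an unadjusted p under 0.05, while DESeq2 called 1 and limma-voom 2. These counts are read against 7723 of 21456 genes with an unadjusted p under 0.05 in edgeR, and against shares called higher of 13.1% with DESeq2 and 23.3% with limma-voom. Srebf1, the SREBP gene tied mainly to fatty acid synthesis (chromosome 11, 60199089 to 60222581), had 86.2, 130.1 and 342.1 CPM as the lowest, median and highest tumour, against 77.6, 95.8 and 83.7 CPM in epithelium. Its log2 fold change was 1.16 (SE 0.44, edgeR adjusted p = 0.0780, and 0.0402 without tumour 4), and 8 tumours were above the epithelium. Srebf2, tied mainly to sterol synthesis (chromosome 15, 82147181 to 82205379), had 65.3, 127.3 and 238.2 CPM as the lowest, median and highest tumour, against 76.9, 77.7 and 97.8 CPM in epithelium (log2 fold change 0.61, SE 0.33, edgeR adjusted p = 0.200). Tumour 4 was below the epithelium and 7 tumours were above it. Scap was at 16.3 CPM in tumour 4 and 60.8 to 129.5 CPM in the other tumours, against 65.7 to 73.2 CPM in epithelium. Insig1 and Insig2 had log2 fold changes of 0.05 and 0.13 (SE 0.38 and 0.30), with tumours on both sides of the epithelium.

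**Figure D3:**
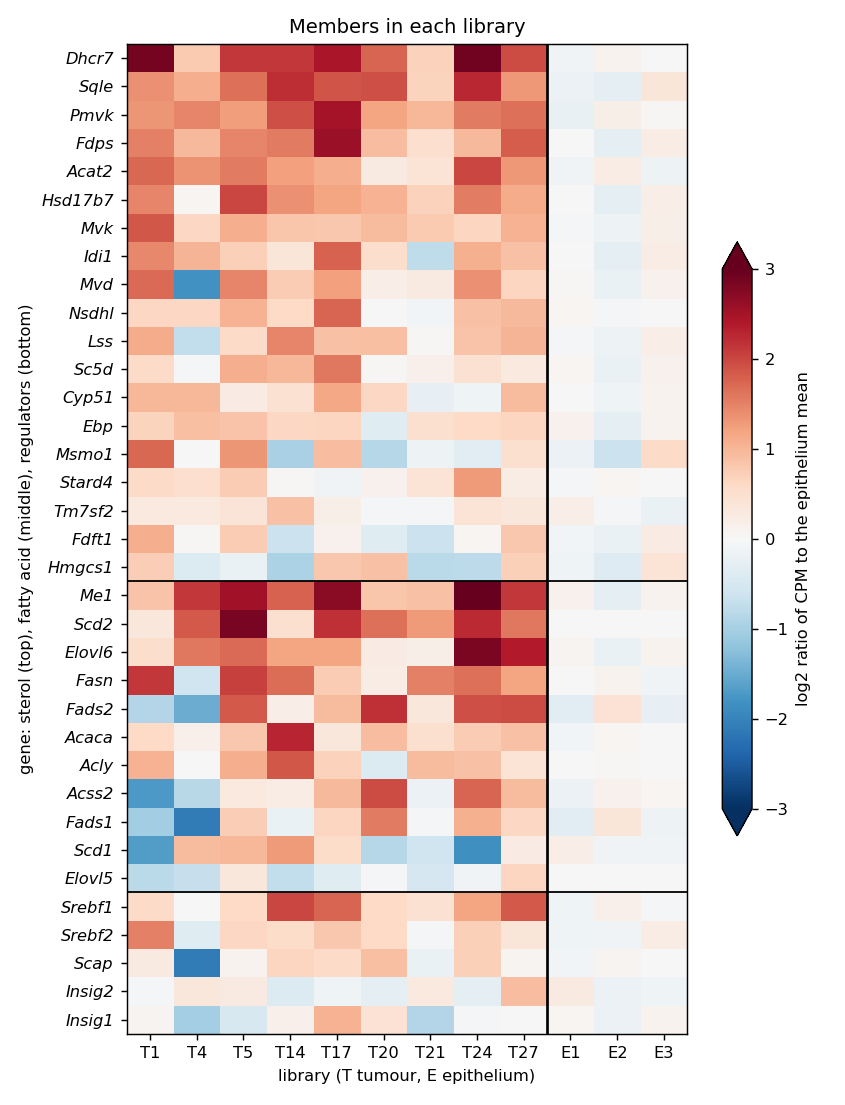
Log2 ratio of CPM to the epithelium mean for each of the 35 genes (rows) in 9 tumours and 3 epithelium libraries (columns). The colour scale ends at 3 in either direction. Both branches hold genes raised across the tumours, such as Dhcr7, Sqle and Pmvk (sterol) and Me1, Scd2, Elovl6 and Acaca (fatty acid). Both also hold genes raised in some tumours and lowered in others, such as Hmgcs1, Fdft1 and Msmo1 (sterol) and Fads1, Fads2, Acss2 and Scd1 (fatty acid).

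The 2 branches were set against each other tumour by tumour, since no difference between lists was tested. In each library the log2 ratio of each gene to its epithelium mean was taken, and the median over the genes of a branch. For the sterol branch this median was lowest in tumour 21 (0.27) and highest in tumour 1 (1.33), and for the fatty acid branch lowest in tumour 4 (0.00) and highest in tumour 24 (1.66). The epithelium libraries ran from -0.20 to 0.14 and from -0.02 to 0.04. The sterol median exceeded the fatty acid median by 1.00 in tumour 1, by 0.61 in tumour 4 and by 0.39 in tumour 17. In tumours 24, 14, 20 and 21 it was smaller, with differences of -0.78, -0.37, -0.3 and -0.08. In tumours 5 and 27 the medians were within 0.02 of each other.

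**Figure D4:**
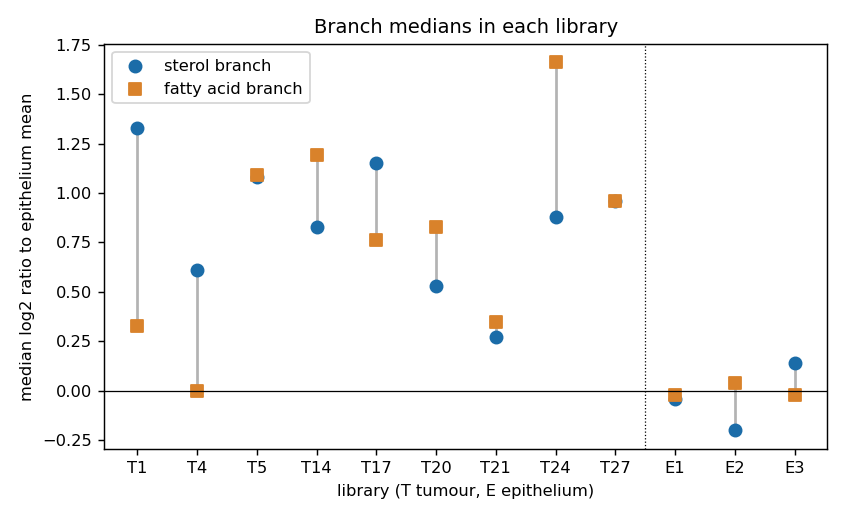
Median log2 ratio to the epithelium mean over the 19 sterol genes (circles) and the 11 fatty acid genes (squares) in each tumour and epithelium library. Tumour 1 has the higher sterol median (1.33 against 0.33 for fatty acids) and tumour 24 the higher fatty acid median (1.66 against 0.88 for sterols).

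Tumour 1 had all 19 sterol genes above every epithelium library, and was highest of the tumours for 4 of them and for Srebf2. Of its 11 fatty acid genes 6 were above the epithelium and 5 below, namely Fads1, Fads2, Acss2, Scd1 and Elovl5. Tumour 1 also had the highest Fasn value, 671.6 CPM. The adipocyte-defining genes Adipoq, Plin1 and Cidec were at 0, 0.0332 and 0.0332 CPM in this tumour, and 5 milk protein genes summed to 2.29 CPM. Tumour 4 had the highest sum of 9 adipocyte markers among tumours, 200.5 CPM, and the lowest Fasn value. Its library, with 51.97% of alignments not unique, was also lowest for 5 sterol genes, 4 fatty acid genes (Fasn among them) and 4 regulators. Tumour 14 had the next highest sum, 163.5 CPM, with the highest Plin1 (6.88 CPM) and Cidec (10.4 CPM) among tumours, and it was also highest for Acly, Acaca and Scd1, with Fasn at 496.1 CPM. Any part of adipocytes or of library quality in the values of these tumours was not tested.

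Tumour 17 was highest for 6 sterol genes, with Sc5d at 136.2 CPM and Idi1 at 79.9 CPM, and had the highest summed sterol level, 961.7 CPM, against 348.1 to 477.1 CPM in epithelium. Its milk protein genes summed to 6219 CPM, the most of any tumour. Tumour 21 was lowest for 7 sterol genes and above the tumour median for none of the 19, and had the lowest summed level of dividing cell genes, 467.1 CPM. Its 6 fibroblast markers summed to 31650 CPM, against 1273 to 5592 CPM in the other tumours and 3700 to 5643 CPM in epithelium. Tumour 20, with a low sterol median of 0.53, had the next to highest sum of dividing cell genes, 1731 CPM. The part of these cells in the sterol values was not tested. Tumour 24 was highest for 4 sterol genes and for Elovl6 and Me1, and had the highest level of dividing cell genes, 2888 CPM. Tumours 5 and 27 had all 11 fatty acid genes above every epithelium library, and 18 of 19 sterol genes.

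Spread among tumours is described without a test. The SD of log2 CPM over the 9 tumours had a median of 0.56 over sterol genes, 0.90 over fatty acid genes and 0.64 over regulators, beside 0.75 over tested genes with counts in every library. Among the 3 epithelium libraries the medians were 0.21, 0.15 and 0.15, beside 0.16. The smallest spread among tumours was that of Tm7sf2 (0.29) and the largest that of Fads2 (1.33).

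Ratios of 2 genes within a library, which need no scaling between libraries, were tested for 4 pairs with a two-sided exact permutation test that took every one of the 220 divisions into 9 and 3, and p was adjusted over the 4 pairs. None passed. The log2 ratio of Hmgcs1 to Fasn, 1 early enzyme of each branch, was -2.15 ± 1.29 in tumours and -1.01 ± 0.50 in epithelium (SD, n = 9 and 3), a difference of -1.14 (exact permutation p = 0.182, adjusted 0.364). Scd2 over Scd1 was 0.29 ± 1.30 in tumours and -1.41 ± 0.17 in epithelium, a difference of 1.70 (exact permutation p = 0.0636, adjusted 0.255). For this pair 8 tumours were above every epithelium library and tumour 14, at -2.22, was below. Without tumour 14 the difference was 2.01 and the adjusted exact permutation p 0.0242, and without any other library the adjusted exact permutation p was 0.218 to 0.582. Leaving out tumour 14 removes the single tumour below the epithelium, and the p of that fit is the smallest it can give. Without an epithelium library the smallest exact permutation p is 0.0182 before adjustment, so there 1 pair alone could not pass. Srebf2 over Srebf1 differed by -0.47 (exact permutation p = 0.323) and Insig1 over Insig2 by -0.16 (exact permutation p = 0.782).

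**Figure D5:**
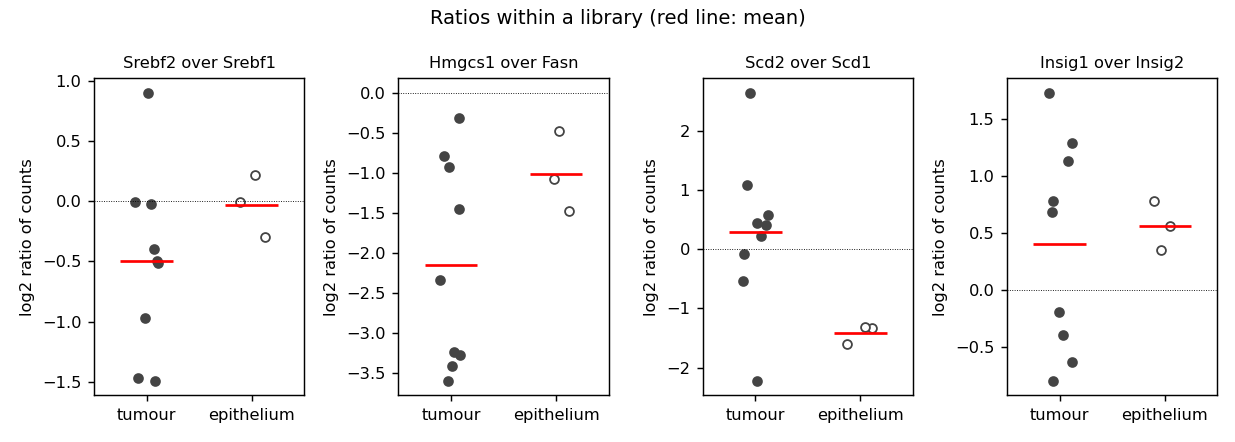
Log2 ratio of the counts of 2 genes within each tumour and epithelium library for 4 pairs, with the group means as lines. For Scd2 over Scd1, 8 tumours lie above the 3 epithelium libraries and tumour 14 lies below them at -2.22.

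Neighbouring steps of lipid metabolism were read from 5 lists of other genes. In all but the list of further fatty acid and glyceride synthesis the shares called were near or below those of all genes tested, 8.89% higher and 11.4% lower, so those counts are no result about the lists. Of 11 genes that process SREBP factors or degrade their partners, Aup1, a lipid droplet protein that takes part in degradation at the endoplasmic reticulum, was higher (log2 fold change 1.00, edgeR adjusted p = 0.0425) and none was lower. The next by p was the ubiquitin-conjugating enzyme Ube2g2 (0.70, edgeR adjusted p = 0.131). Of 20 genes of sterol transport, esterification and efflux none was higher and 2 were lower. These were Gramd1a, which moves cholesterol from the plasma membrane to the endoplasmic reticulum (99.9 ± 46.2 CPM for tumours and 253.4 ± 8.8 CPM for epithelium, SD, n = 9 and 3, log2 fold change -1.34, edgeR adjusted p = 0.0316), and the sterol 27-hydroxylase Cyp27a1 (-1.35, edgeR adjusted p = 0.0337). Of 12 genes of isoprenoid use outside sterols, the dolichol kinase Dolk was higher (0.93, edgeR adjusted p = 0.0301) and none lower, with Rabggtb, a subunit of Rab geranylgeranyl transferase, at 0.85 (edgeR adjusted p = 0.0522). The median log2 fold changes of these lists were 0.25, 0.11 and 0.17, beside 0.17 for all genes tested.

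Of 23 tested genes of further fatty acid and glyceride synthesis, 5 were higher and 2 lower, with a median of 0.69. Tecr, the last reductase of the elongation cycle, averaged 153.3 ± 48.3 CPM across tumours and 61.95 ± 1.28 CPM across epithelium (SD, n = 9 and 3, log2 fold change 1.31, SE 0.32, edgeR adjusted p = 0.0126). Its partners in the cycle, Hsd17b12 (1.54) and Hacd2 (1.56), were also called, as were Acsl3 and Agpat2. Other elongation genes of the list, Hacd1 (1.29), Hacd3 (-0.18), Elovl1 (0.39) and Elovl7 (0.23), did not pass the test. Dgat2, which makes triglycerides, averaged 9.82 ± 10.1 CPM across tumours and 71.8 ± 46.3 CPM across epithelium (SD, n = 9 and 3, log2 fold change -2.87, SE 0.63, edgeR adjusted p = 0.00679). The other gene that fell was Lpin1, a phosphatidate phosphatase. Of 9 adipocyte markers, Fabp4 and Lipe fell as well. Adipoq, Plin1 and Cidec had log2 fold changes of 0.05, -0.35 and -0.23 with edgeR adjusted p of 0.853 to 0.982. The rest, Retn (-1.07), Plin4 (-0.76), Cfd (-0.24) and Lep (0.23), did not pass the test either. The summed level of the 9 markers was 33.2 to 200.5 CPM in tumours and 402 to 589.9 CPM in epithelium. Fabp4, which endothelium also expresses, averaged 32.6 CPM across tumours and 418.5 CPM across epithelium, and made up most of that sum in epithelium. Of 8 endothelial markers 4 were lower in tumours and none higher, beside 11.4% of all genes tested that were lower. Their sum was 149.8 to 520.1 CPM in tumours and 729 to 851.5 CPM in epithelium. The part of adipocytes or endothelium in these values was not tested. Of 14 tested genes of fatty acid oxidation 1 was higher and none lower, with a median of 0.06. It was the receptor gene Ppara, with a mean of 2.29 ± 1.21 CPM for tumours and 0.539 ± 0.076 CPM for epithelium (SD, n = 9 and 3, log2 fold change 2.08, edgeR adjusted p = 0.0370), followed by the coactivator gene Ppargc1a (3.09, edgeR adjusted p = 0.0673).

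Fold changes also moved with gene length. Tested protein-coding genes, 15599 in number, were put in 10 classes of exonic length, and the median log2 fold change of the classes that hold members lay between 0.51 for class 2, of short genes, and -0.08 for class 10, of the longest. Of the sterol genes 17 of 19, and of the fatty acid genes 10 of 11, were above the median of their own class. Pmvk and Mvd, in class 2, stand beside its median of 0.51, and Dhcr7 and Sqle beside 0.16.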

How the data were processed

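Total RNA of 9 tumours and 3 epithelium preparations was sequenced after a stranded TruSeq preparation, per the labels' protocols. The deposited counts per gene symbol are raw whole numbers, not normalized. Per the submitters' processing notes the build was GRCm38, with HTSeq 0.11.0, TopHat2 2.1.1 and FastQC 0.11.8 among the tools. The annotation release, the strand setting and whether reads or pairs were counted were not given in the sources used here. Each file has 5 summary lines, which stayed out of library sizes.

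Groups were read from titles. Counts were fitted with edgeR 4.0.16 (filterByExpr, TMM, robust quasi-likelihood F test, group only). Alternatives used limma 3.58.1 and DESeq2 1.42.0, in R 4.3.3. Each SE was obtained by dividing the size of the log2 fold change by the root of its F statistic. CPM hold no prior count. Levels per kb use a principal transcript of GENCODE M21, which matched 54106 of 54658 symbols. Ratios used counts plus 1. Promoters came from RefSeq (GRCm38.p6), near copies (95% identity over 200 bases) from BLAST 2.17.0, with Python 3.11.15. On simulated data (21456 genes, tumour over epithelium, 50 genes changed at each fold) edgeR found 2% of the 2-fold changes and 50% of the 4-fold. It found 84% of the 8-fold and 96% of the 16-fold changes, and 4 of its 120 calls were false. Whether these shares hold for the measured libraries, with 4346 calls and unequal dispersion in tumours and epithelium, was not tested. Dispersion fitted alone was 0.499 in tumours and 0.0386 in epithelium, while the test shares 1 value per gene. Members and lists were chosen with earlier results of these data known. Named were members past the test or most abundant per kb in a branch, other members by role, and the 2 genes of smallest adjusted p of each list, with further list genes chosen after their values were seen.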

Additional observations from a re-analysis of the deposited data

Results flagged for a closer look

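Dixon's test for a single tumour far from the other 8 marked 10 of 39 values examined (CPM of 35 genes and 4 ratios). Its rate of about 1 in 20 by chance holds for independent values from a normal distribution. CPM were not put on a log scale and the genes are related, so 10 of 39 is not read as an excess. The marked tumour was the highest in 9 of the 10. Tumour 17 stood out for Pmvk (58.6 CPM), Fdps (10.4 CPM) and Nsdhl (41.4 CPM). Tumour 14 stood out for Acly (734.2 CPM), Acaca (439.6 CPM) and Tm7sf2 (5.79 CPM), and tumour 1 for Mvk (25.6 CPM) and Srebf2 (238.2 CPM). For Insig2 it was tumour 27 (47.1 CPM). Ebp was lowest in tumour 20 (22.8 CPM), below the epithelium range of 24.2 to 32.3 CPM.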

How the results depend on the processing

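Of the values of single genes under 19 alternatives, 604 kept direction and side of the threshold, 24 newly passed, 29 no longer passed and 8 changed sign. The sign changes were in genes with adjusted p of 0.785 or more. Insig1 was at -0.06 with upper quartile scaling, -0.02 with at least 10 counts in 9 libraries, -0.05 with limma-voom, -0.14 without tumour 17, -0.03 without epithelium library 2 and 0.00 (just below 0) without tumour 20. Scd1 was at -0.11 with limma-voom and Insig2 at -0.01 without tumour 27. Over left-out libraries Insig1 ranged from -0.14 to 0.15 and Insig2 from -0.01 to 0.28. The median over all genes was 0.17, 0.07 with upper quartile scaling, 0.38 with no filter and -0.02 with limma-voom. Sterol genes called numbered 4 with no filter and 13 with limma-voom, and 2 to 8 when a library was left out. Fatty acid genes called numbered 4 with DESeq2 and 6 with limma-voom, and 0 to 4 when a library was left out. Regulators called numbered 1 with DESeq2 and 2 with limma-voom, and 0 to 1 when a library was left out. All genes called numbered 4346, 7395 with DESeq2 and 10616 with limma-voom, and 2005 to 5158 when a library was left out. Without epithelium library 1, 2 or 3 the share of calls that were higher was 25.2%, 26.0% or 26.8%, against 43.9% with all libraries. Fits without an epithelium library compare 9 tumours with 2 libraries. Differences of ratios ranged over left-out libraries from -1.37 to -0.87 for Hmgcs1 over Fasn, 1.41 to 2.01 for Scd2 over Scd1, -0.64 to -0.34 for Srebf2 over Srebf1 and -0.33 to -0.01 for Insig1 over Insig2, and a prior of 5 counts changed no call. The smallest exact permutation p is 0.00455 with all libraries and 0.0182 without an epithelium library. The cause of these changes was not tested. No paired analysis was possible because no label links a tumour to an epithelium library, and a number found in both groups does not mark a pair. Fdps rested on 150 counts over the 3 epithelium libraries, the fewest of any member, and Mvd on 22 counts in tumour 4.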
